A study of Bos taurus with 20 samples.

Results

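Chemokine receptors are the cell-surface proteins by which blood leukocytes sense chemokines, the small secreted proteins that direct where white cells travel. The receptor transcripts described here were CXCR1, CXCR2, CXCR3, CXCR4, CX3CR1, CCR1, CCR2, CCR4 and CCR7, chosen by symbol and matched to the Entrez identifiers of the count files with the NCBI cattle gene table. They were 9 of the 37063 genes counted. All 9 were found in the files, 8 were measured in every cow, and CX3CR1 was listed at 0 in every cow.

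Whole blood was drawn from 20 recipient cows at day 63 of gestation, and RNA from each cow was sequenced as 1 library. Each cow carried a single female beef foetus, produced in vitro with X-sorted semen and placed by embryo transfer, and all cows formed 1 group with no untreated or nonpregnant control. The variable that differed between cows was the birth weight (BW) of the calf later born, 30 to 72.5 kg with a mean of 45.0 ± 10.1 kg (SD, n = 20). The sources describe the recipients differently, as lactating dairy cows or as Angus, so breed, age and milk yield could not be followed here. Total counts were 24632077 to 39892111 per library with a median of 33412740, and no sequencing batch was named, so no within-batch value could be given. Each cow is named below by the weight of its calf.

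A chemokine receptor spans the cell membrane and passes its signal inward through inhibitory G proteins, after which arrestins and receptor kinases switch it off. CXCR1 and CXCR2 bind CXCL8 and related chemokines and are known from neutrophils, CCR1 and CCR2 are known from monocytes and other myeloid cells, and CXCR3, CCR4 and CCR7 are known mainly from T cells. CXCR4 binds CXCL12 and is carried by most leukocytes, and CX3CR1 binds CX3CL1. The blood libraries held the transcripts of all these cell types. The summed level of 14 tested neutrophil marker genes was 4502 to 6920 CPM (counts scaled to a common library size), that of 10 monocyte genes 1181 to 2028 CPM, and that of 17 T cell genes 2085 to 3013 CPM. In whole blood, fewer cells of a type and less RNA per cell cannot be told apart.

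The first question was how evenly each receptor was expressed over cows, measured in CPM with TMM library sizes. Levels were not compared between receptors, since the lengths of the counted transcripts were not used here. Spread is given as the SD of log2 CPM over the 20 cows. Over the 16206 genes tested its median was 0.21, and 1 receptor lay well below that while the others were near or above it.

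CXCR1 had a lowest value of 32.1, a median of 58.5 and a highest of 91.2 CPM. The cow of the 45 kg calf was lowest and the cow of the 50 kg calf was highest. Its SD of 0.36 exceeded that of 77.4% of the tested genes, the widest spread among the measured receptors. CXCR2, its neighbour in the genome and a close paralog, ran from 107 through a median of 177 to 248 CPM. The cow of the 45 kg calf was again lowest, and the cow of the 54 kg calf was highest. The ratio of CXCR2 to CXCR1 counts within a cow was 2.23 to 4.01, and reads shared between these similar genes could have moved in either direction.

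CXCR4 had a lowest value of 21.2, a median of 34.6 and a highest of 46.7 CPM, and these extremes belonged to the 45 and 35 kg calves. That made the cow of the 45 kg calf the lowest of 20 for CXCR1, CXCR2 and CXCR4 alike, and the second lowest for CCR1. CCR1, a receptor for CCL3 and CCL5, ran from 136 through 173 to 257 CPM. The 36 kg calf marked its lowest cow and the 50 kg calf its highest.

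CCR2, the receptor for CCL2 that brings monocytes out of the marrow, had values of 62.7, 94.5 and 123 CPM as its lowest, median and highest. The lowest cow carried the 56 kg calf and the highest the 55 kg calf, 2 neighbours in calf weight at opposite ends of the range. CXCR3, which binds CXCL9, CXCL10 and CXCL11 on activated T cells, ran from 2.06 through 4.23 to 5.38 CPM. The low end was a single cow, with a 41.5 kg calf, and the next lowest value was 3.10 CPM.

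CCR4, a receptor of helper T cells and skin-homing T cells, had a lowest value of 9.80, a median of 13.4 and a highest of 18.5 CPM. The lowest cow carried the 72.5 kg calf, and the next lowest was at 9.85 CPM. CCR7, which guides naive T cells and dendritic cells into lymph nodes, was the most even receptor at 51.3, 59.4 and 73.5 CPM. Its highest value was 1.43 times its lowest, and its SD of 0.13 exceeded that of 23.8% of the tested genes.

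**Figure D1:**
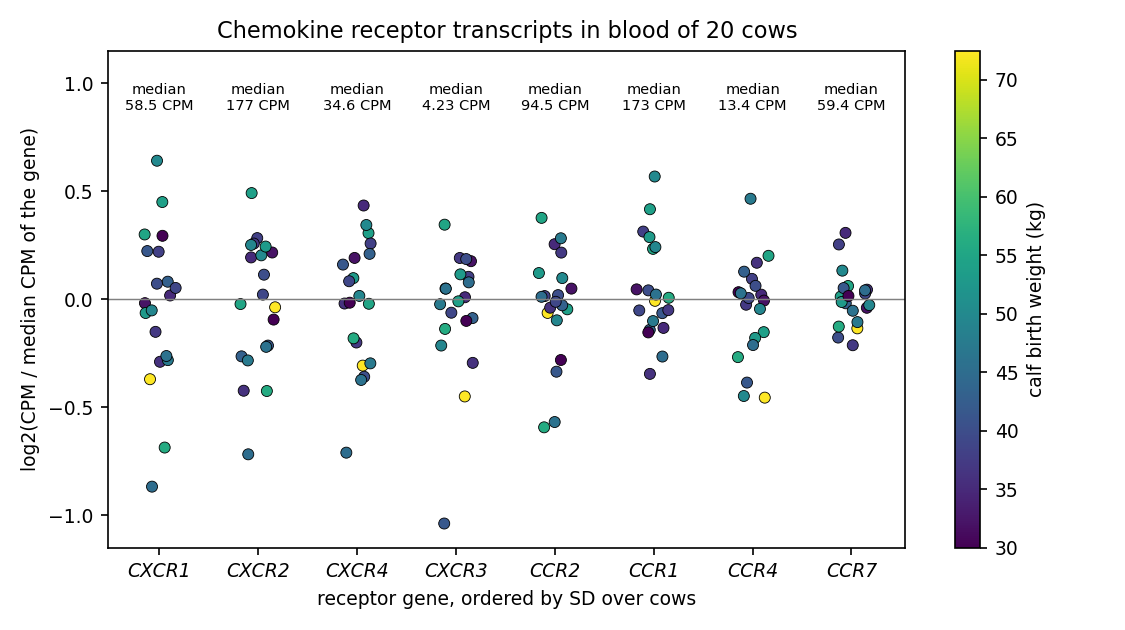
Each point is 1 of 20 cows, placed on the y axis by the log2 ratio of its CPM to the median CPM of that receptor and coloured by calf birth weight in kg. CXCR1 on the left spans 32.1 to 91.2 CPM and CCR7 on the right 51.3 to 73.5 CPM, and 1 cow lies apart below the others for CXCR3.

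CX3CR1, the receptor of patrolling monocytes and cytotoxic lymphocytes, had 0 counts among 658748645 counts in all 20 libraries. A count of 0 allows up to 3 counts, or 0.00455 CPM over the 20 libraries, for counting error only. In the gene table, of an assembly other than the build used for counting, CX3CR1 lay wholly inside the span of CCR8, and XIRP1 and a pseudogene in that span were also at 0. Of 1106 coding genes lying wholly inside another coding gene, 1010 (91.3%) were at 0 in every cow, against 2534 of 17554 (14.4%) of coding genes with no overlap. The other chemokine receptors listed at 0, CXCR6, XCR1, CCR3, ACKR1 and ACKR4, each lay inside another coding gene too, and are named here, with XIRP1, because of that 0. The 0 is therefore not given as a level of CX3CR1 in blood, and CX3CR1 is left out of the comparisons that follow. The 8 measured receptors overlapped no other gene in the table.

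**Figure D2:**
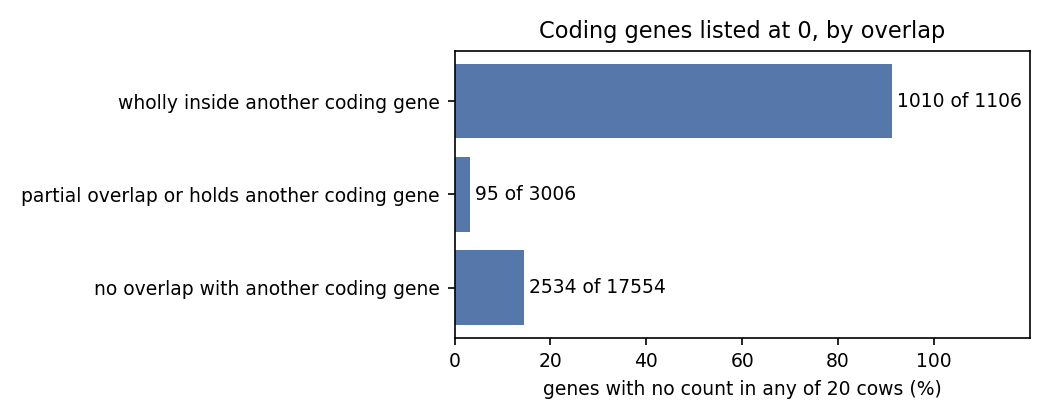
The bars give the percentage of coding genes with no count in any of 20 cows, by how the gene overlaps other coding genes in the gene table, with the number of genes beside each bar. Genes lying wholly inside another coding gene, the class of CX3CR1, were at 0 in 91.3% of cases.

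The second question was whether the receptors rose and fell together over cows. The 8 measured receptors form 28 pairs, and each pair was given Pearson's r and Spearman's rho on log2(CPM + 0.5) with two-sided permutation tests of 100000 resamples. The p-values were adjusted by Benjamini-Hochberg over all 16205 other genes correlated with a receptor. This was done for both receptors of a pair, and the larger adjusted p is given. No pair passed, and the smallest adjusted p was 0.106 for r and 0.160 for rho. At an unadjusted p below 0.05 for both measures, 6 of 28 pairs were counted (21.4%), where the same rule over all genes gave 8.74% for CXCR1, 6.76% for CXCR2, 7.63% for CXCR3, 7.13% for CXCR4, 5.22% for CCR1, 11.2% for CCR2, 7.78% for CCR4 and 3.95% for CCR7. Spearman's rho was above 0 in 22 pairs and below 0 in 6, with a median of 0.21.

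CXCR1, CXCR2 and CXCR4 formed 3 of the 6 pairs. CXCR1 and CXCR4 had an r of 0.74 (permutation p = 0.00026, adjusted p = 0.106) and a rho of 0.65 (permutation p = 0.0025, adjusted p = 0.271). Without the cows of the 45 and 56 kg calves, the 2 farthest from the median of CXCR1, r was 0.64 (permutation p = 0.0045). CXCR1 and CXCR2 had an r of 0.68 (permutation p = 0.00101, adjusted p = 0.156) and a rho of 0.49 (permutation p = 0.0292, adjusted p = 0.474). Without the same 2 cows r was 0.43 (permutation p = 0.0779), and without those of the 45 and 54 kg calves, the farthest from the median of CXCR2, it was 0.47 (permutation p = 0.0481). The rho of this pair lost its unadjusted call without any 1 of the 36, 45, 46, 47.4, 54 and 56 kg calves' cows, at 0.41 to 0.43. CXCR2 and CXCR4 had an r of 0.61 (permutation p = 0.00422, adjusted p = 0.250) and a rho of 0.52 (permutation p = 0.0187, adjusted p = 0.415). Leaving out the 45 kg calf's cow alone took that pair past the threshold, at an r of 0.45 (permutation p = 0.0566) and a rho of 0.44 (permutation p = 0.0580). Without the 2 cows farthest in CXCR2 (45 and 54 kg calves) r was 0.37 (permutation p = 0.126).

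CXCR2 and CCR1, both receptors of myeloid cells, had an r of 0.71 (permutation p = 0.00066, adjusted p = 0.194) and a rho of 0.72 (permutation p = 0.00063, adjusted p = 0.309). Without the cows of the 45 and 54 kg calves r was 0.61 (permutation p = 0.00667). CXCR3 and CCR2 differed between the measures, with an r of 0.47 (permutation p = 0.0401, adjusted p = 0.294) and a rho of 0.71 (permutation p = 0.00068, adjusted p = 0.160). Without the cows of the 41.5 and 72.5 kg calves, farthest in CXCR3, r was 0.47 (permutation p = 0.0496), and without those of the 46 and 56 kg calves, farthest in CCR2, it was 0.71 (permutation p = 0.00062). Its r lost the unadjusted call without any 1 of the cows of the 37, 41.5, 50, 53 and 55 kg calves, and was lowest without that of the 55 kg calf (r = 0.39, permutation p = 0.102). CXCR4 and CCR7 had an r of 0.61 (permutation p = 0.00397, adjusted p = 0.880) and a rho of 0.60 (permutation p = 0.00586, adjusted p = 0.618). Without the cows of the 35 and 45 kg calves, farthest in CXCR4, r was 0.74 (permutation p = 0.00031), and without those of the 35 and 38 kg calves, farthest in CCR7, it was 0.48 (permutation p = 0.0424). CCR4 entered none of the 6 pairs.

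**Figure D3:**
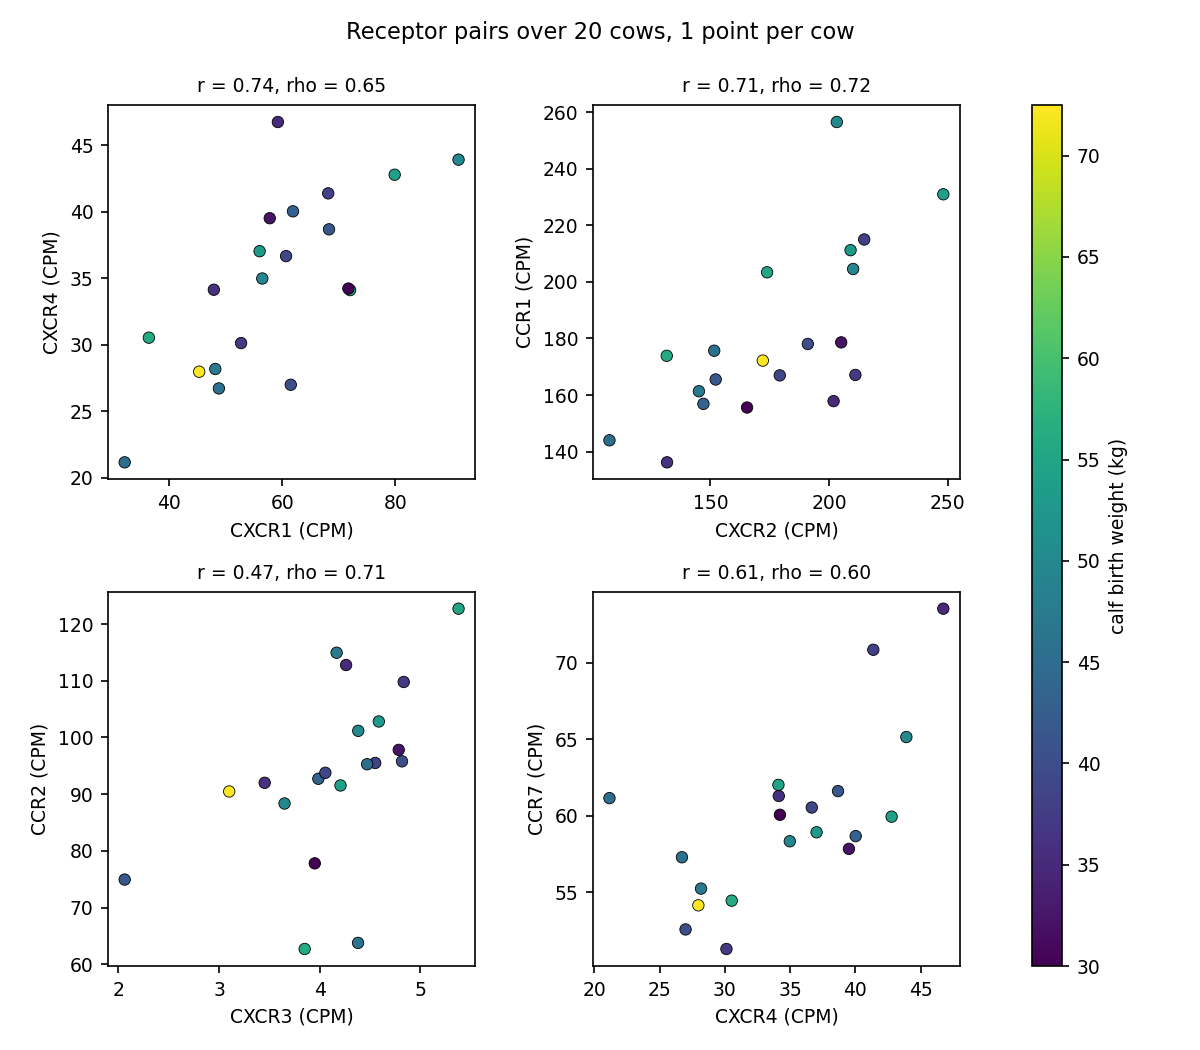
The 4 panels plot the CPM of 1 receptor against that of another, with 1 point per cow coloured by calf birth weight in kg and with r and rho of the log2 values above. The cow of the 45 kg calf is at the lower left of the panel of CXCR1 and CXCR4, and the cow of the 41.5 kg calf at the far left of the panel of CXCR3 and CCR2.

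Receptor levels were also set beside scores of 10 blood cell marker lists, which makes 80 relations adjusted together. None passed for both r and rho, and 14 had an unadjusted p below 0.05 for both. How often all tested genes reach this with the same scores was not computed, so the 14 cannot be called unusual. CXCR1 had an r of 0.68 with the neutrophil score (permutation p = 0.00084, adjusted p = 0.0336) and a rho of 0.63 (permutation p = 0.00339, adjusted p = 0.0936). Without the 2 cows farthest from the median of the score r was 0.55. The neutrophil score also reached an unadjusted p below 0.05 by both measures with CXCR2 (r = 0.61, rho = 0.59), CXCR4 (r = 0.60, rho = 0.51) and CCR1 (r = 0.59, rho = 0.52). Without the 2 cows farthest from the median of the neutrophil score, r was 0.68 for CXCR2, 0.59 for CXCR4 and 0.36 for CCR1. The neutrophil score was not alone in this. CXCR1 also went with the platelet score (r = 0.63, rho = 0.49) and the monocyte score (r = 0.58, rho = 0.54), as did CXCR2 (r = 0.60, rho = 0.47 and r = 0.50, rho = 0.50). Without the 2 cows farthest in the platelet score, r was 0.43 for CXCR1 and 0.29 for CXCR2. The same check with the monocyte score gave 0.42 and 0.38. CXCR4 went with the erythroid score as well (r = 0.51, rho = 0.45, and r = 0.58 without the 2 cows farthest in that score). CCR2 went with the monocyte score at an r of 0.81 (permutation p = 0.00011, adjusted p = 0.0088) and a rho of 0.63 (permutation p = 0.00351, adjusted p = 0.0936). Without the 2 cows farthest in the monocyte score the r of CCR2 was 0.55. Its r with the dendritic cell score was 0.57 (rho = 0.47), and 0.37 without the 2 cows farthest in that score. CXCR3 ran against the B cell score, with an r of -0.58 and a rho of -0.66, and an r of -0.69 without the 2 cows farthest in that score.

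With the receptors known from T cells, the T cell score did not reach an unadjusted p below 0.05 by both measures. Its r was 0.40 with CXCR3 (rho = 0.45). It was 0.45 with CCR4 (rho = 0.18) and -0.14 with CCR7 (rho = -0.20). CXCR4 went against the gamma delta T cell score (r = -0.49, rho = -0.53) and the natural killer and cytotoxic score (r = -0.45, rho = -0.46). Library depth moved with 1 receptor by both measures, CXCR2, at an r of 0.48 (permutation p = 0.0321, adjusted p over the 8 receptors = 0.256) and a rho of 0.52 (permutation p = 0.0209, adjusted p = 0.167). By rho alone it also moved with CCR1, at 0.45 (permutation p = 0.0472, adjusted p = 0.180), where r was 0.37 (permutation p = 0.109). The part of depth in the relations of CXCR2 and CCR1 was not tested.

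**Figure D4:**
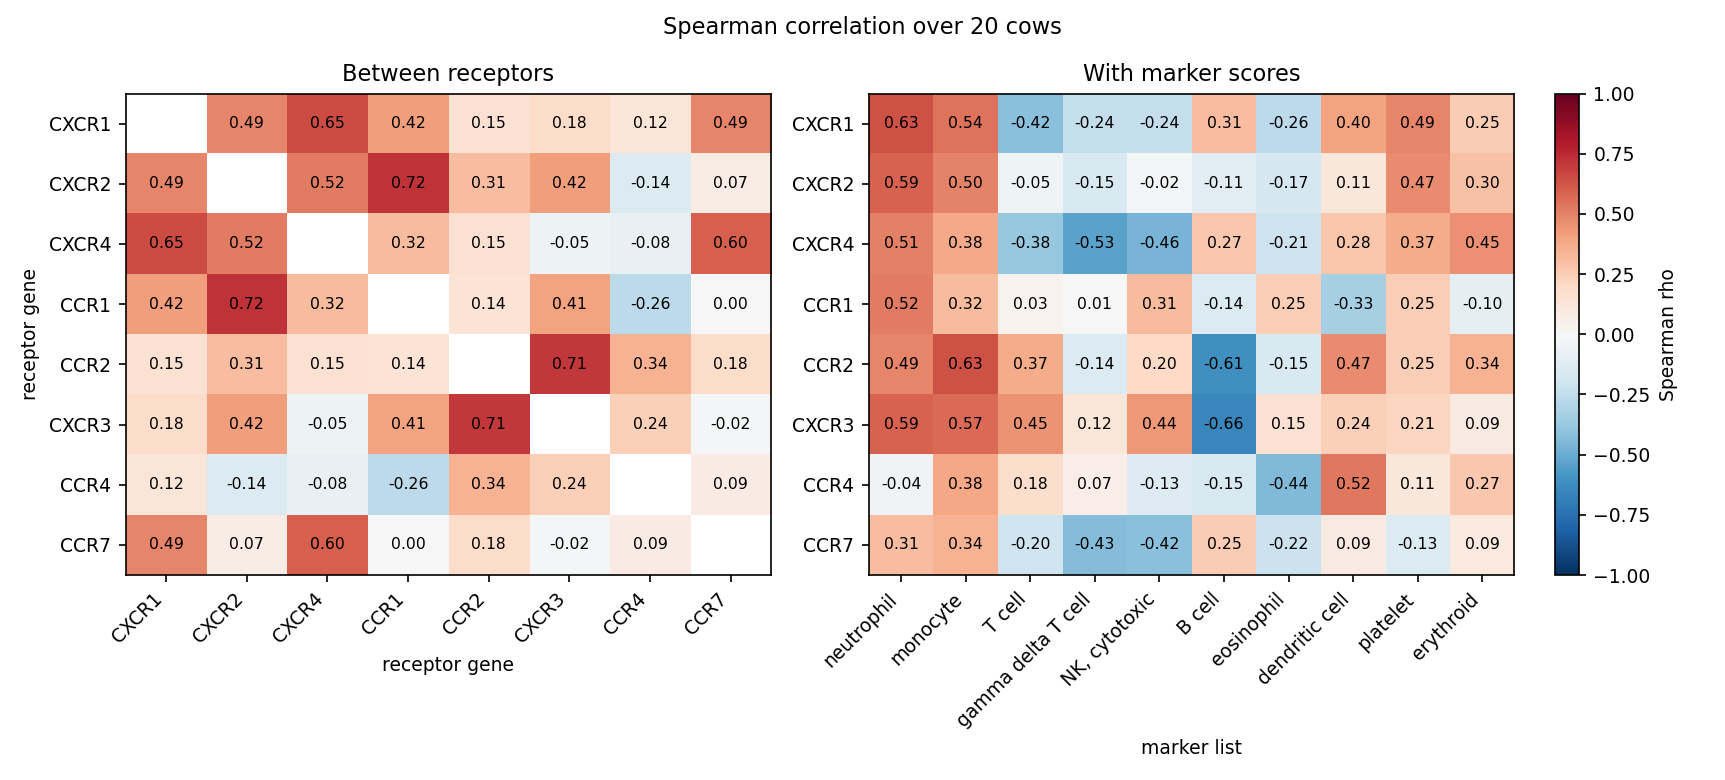
The left panel gives Spearman's rho over 20 cows for each pair of receptors and the right panel rho of each receptor with each marker score, coloured from -1 to 1. The cells of CXCR2 with CCR1 (0.72) and CXCR3 with CCR2 (0.71) are the highest on the left.

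Among all genes tested, CCR2 had 103 genes (0.636%) and CXCR1 13 genes (0.0802%) whose r and rho both passed after adjustment, and the other 6 receptors had none. Of the CCR2 genes, 72 were correlated positively and 31 negatively. The positive ones held 4 genes of the lists used here, namely the monocyte genes CD14 and CSF1R, the neutrophil gene S100A12 and the dendritic cell gene FLT3. The negative ones held 1, ELMO1, a partner of the DOCK proteins in cell movement. Of the 13 CXCR1 genes, 9 were correlated positively and 4 negatively, and the negative ones held CCR9, a chemokine receptor of gut-homing lymphocytes. These 6 genes were picked out after their values were seen. For each receptor the 3 most similar named genes by rho over 20 cows were taken.

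For CCR2 the 3 were IDS at a rho of 0.91, SAP30 at 0.89 and RASA4B at 0.87. For CXCR1 they were SNX18 at a rho of 0.91, PGS1 at 0.86 and OR52W1 at 0.86. For CXCR2 they were C5H12orf75 at 0.91, IL10RB, a chain of the interleukin 10 receptor, at 0.85, and LITAF at 0.82. These are descriptions over the same 20 libraries. For CXCR4 they were KCNJ2 at 0.85, TCIRG1 at 0.82 and SGSH at 0.79. For CCR1 they were OSCP1 at 0.85, SLC36A1 at 0.80 and PPP1R3D at 0.79. For CXCR3 they were PDZD7 at 0.82, RAB1B at 0.80 and NOD2, an intracellular sensor of bacterial cell walls, at 0.79. No gene was shared between these sets of 3. For CCR4 the set was FTSJ3 at 0.81, DHX38 at 0.81 and SLC25A20 at 0.80. For CCR7 it was MTHFSD at 0.84, ZNF609 at 0.76 and SH2B3 at 0.75.

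The third question was whether any receptor followed the weight of the calf. Slopes were fitted on the counts with edgeR's quasi-likelihood test over 19 cows. The cow whose calf weighed 72.5 kg was left out, as the study did in its differential test, where it called that calf an outlier. The next heaviest calf weighed 56 kg. CCR1 had a positive slope at an edgeR unadjusted p below 0.05 and did not pass after adjustment. No receptor passed at an FDR below 0.05 and neither did any of the 16206 genes, whereas DESeq2 called 191 genes (0.827%), none of them a receptor. At an unadjusted p below 0.05 by edgeR, 1 of 8 receptors was counted (12.5%), no higher a share than the 13.9% of all genes (2247). DESeq2 likewise counted 1 receptor, beside 10.6% of all genes.

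CCR1 was 203 to 257 CPM in the cows of the 5 calves of 49.5 to 55 kg. Cows of the 13 lighter calves lay at 136 to 179 CPM apart from that of the 38 kg calf at 215 CPM, and the 56 and 72.5 kg calves went with 174 and 172 CPM. This band of weights was drawn after the values were seen, and a shape of CCR1 over weight was not tested. The CCR1 slope was 0.16 on the log2 scale per 10 kg (SE 0.057, edgeR unadjusted p = 0.0117, FDR = 0.224). Over all 20 cows it was 0.09 (edgeR unadjusted p = 0.0700, FDR = 0.415), so that 1 cow decided which side of the unadjusted threshold CCR1 fell on. In that fit no receptor passed at an FDR below 0.05, beside 0.0246% of all genes (4), or at an unadjusted p below 0.05, beside 13.4%. The correlation of CCR1 with BW over 20 cows was r = 0.38 (adjusted permutation p = 0.458) and rho = 0.46 (permutation p = 0.0452, adjusted p = 0.316), and r was 0.51 (permutation p = 0.0315) without the 2 calves farthest in weight. No receptor had an unadjusted p below 0.05 for both r and rho with BW over 20 cows, beside 10.7% of all genes.

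The neutrophil score had an r of -0.02 with BW. The eosinophil score, resting on IL5RA, GATA1 and HRH4, had an r of 0.49 (permutation p = 0.0294) and a rho of 0.56 (permutation p = 0.0109). The dendritic cell score ran the other way, with an r of -0.45 (permutation p = 0.05005) and a rho of -0.56 (permutation p = 0.0117). No other marker list had a permutation p below 0.05 by either measure, and these p-values were not adjusted over the lists. With the neutrophil score as a covariate the CCR1 slope was 0.14 (edgeR unadjusted p = 0.00789), and with the eosinophil score it was 0.17 (edgeR unadjusted p = 0.0215).

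The other 7 slopes were between -0.06 and 0.02 per 10 kg. CCR4 had a slope of -0.06 (SE 0.063, edgeR unadjusted p = 0.330), and over all 20 cows it was -0.095 (edgeR unadjusted p = 0.0651, FDR = 0.403). The correlation of CCR4 with BW over 20 cows, r = -0.44 (permutation p = 0.0533, adjusted p = 0.376), fell to -0.24 (permutation p = 0.336) without the 2 calves farthest in weight. Over 19 cows, CXCR4 was at -0.04 (SE 0.079) and CCR7 at -0.03 (SE 0.038), the smallest error of the 8. Leaving out 1 cow moved these 3 by over 1.5 times without changing their sign, CCR4 to -0.038 when the 56 kg calf was left out, and CXCR4 to -0.0047 and CCR7 to -0.0098 when the 35 kg calf was. CXCR1, with an SE of 0.098, and CXCR2, with an SE of 0.085, had slopes of 0.00027 and -0.0006, so slopes near 0.1 in either direction lay within about 1 SE.

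**Figure D5:**
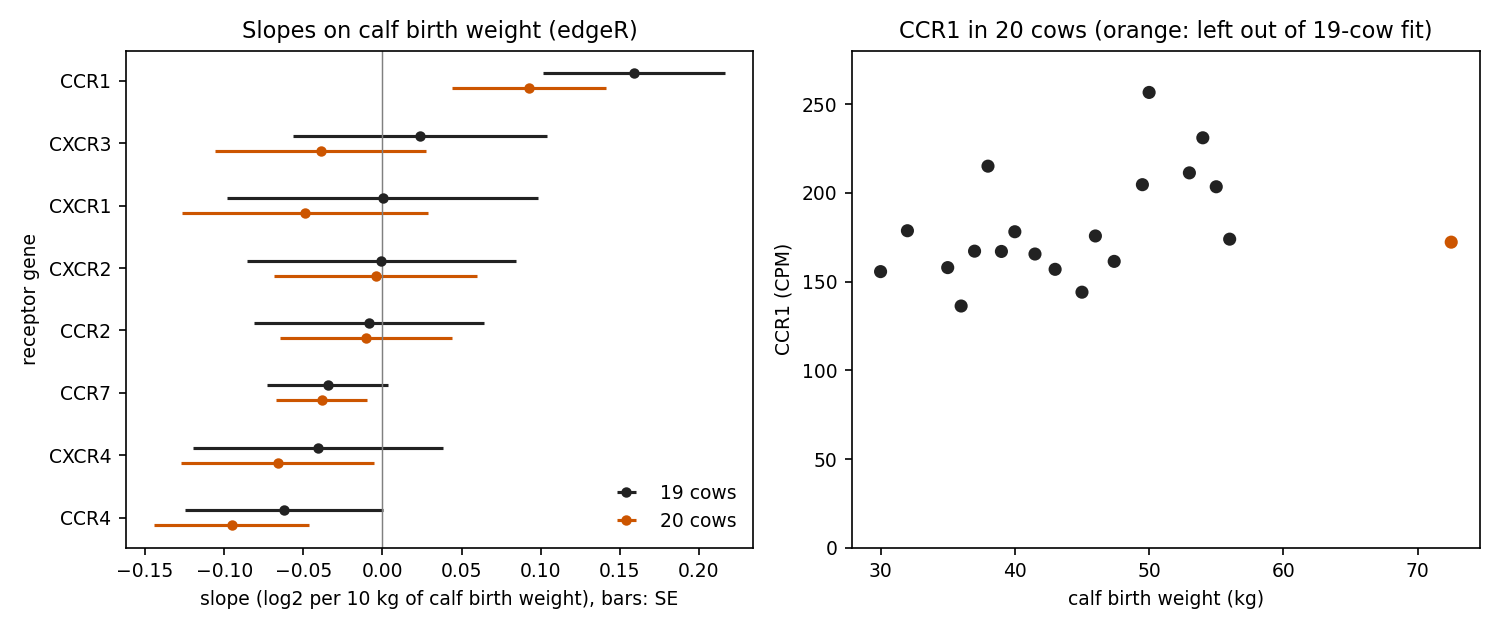
The left panel gives the slope of each receptor in log2 per 10 kg of calf birth weight with its SE, over 19 cows in black and 20 cows in orange. The right panel plots CCR1 in CPM against calf birth weight in kg, where the 5 calves of 49.5 to 55 kg sit at 203 to 257 CPM and the 72.5 kg calf in orange at 172 CPM.

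The genes around the receptors were read from lists of their pathway. Of 30 genes that carry or restrain the receptor signal, 29 were tested and 20 had a positive slope on BW (69.0%, beside 46.6% of all genes). None passed the FDR, and 8 (27.6%) had an unadjusted p below 0.05 by edgeR, beside 13.9% of all genes. All 8 had a positive slope, beside 6.78% of all genes with both. They were DOCK8 (slope 0.10 per 10 kg), RGS18 (0.20), RGS14 (0.12), PIK3CG (0.08), GNAI3 (0.05), PLCB2 (0.16), PIK3R6 (0.36) and ARRB1 (0.09). PIK3CG and PIK3R6 are subunits of the phosphoinositide 3-kinase that acts below G proteins, and GNAI3 is an inhibitory G protein subunit. ARRB1 is an arrestin, and RGS14 and RGS18 are regulators of G protein signalling, so the 8 do not all carry the signal.

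Of the 37 chemokine ligands, 18 were tested and none had an unadjusted p below 0.05, beside 13.9% of all genes. Their slopes were positive in 10 (55.6%, beside 46.6% of all genes) and negative in 8. CCL5, a ligand of CCR1, had a lowest value of 58.4, a median of 84.1 and a highest of 256 CPM, and a slope of -0.15 (SE 0.150). CXCL8, the ligand of CXCR1 and CXCR2, ran from 1.48 through 4.22 to 7.36 CPM with a slope of 0.04 (SE 0.187). The platelet chemokines PF4 (124 to 671 CPM) and PPBP (4.88 to 23.0 CPM) varied widely over cows.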

How the data were processed

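Raw gene counts per library were deposited by the authors as whole numbers. Per the labels, reads were checked with FastQC 0.11.9, trimmed with Trimmomatic, aligned with STAR 2.7.0b to cattle and counted with featureCounts of Subread 2.0.3. Strand setting and the treatment of multi-mapping reads are not given in the sources used here, and the sources name the library kit differently. All 37063 identifiers were named with the NCBI cattle gene table.

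The 16206 genes reaching 10 counts in 5 or more of 19 cows were tested with edgeR 4.0.16 (quasi-likelihood, TMM, Benjamini-Hochberg) in R 4.3.3. Alternatives used DESeq2 1.42.0, with independent filtering at the same FDR of 0.05, and limma 3.58.1. Correlations used log2(CPM + 0.5), where a marker score is the mean standardised value of a list, and two-sided permutation tests of 100000 resamples, whose smallest p is 1e-05. The slope tests and the permutation tests of r and rho were tried on simulated data. Among 190 library pairs none agreed within sampling noise (lowest chi-square per degree of freedom 12.6). Each library was taken as a separate cow, so the spread is between cows. Named genes were the 9 receptors, their 3 most similar genes, and genes of the related lists at 1 CPM or an unadjusted p below 0.05. Outside this rule, receptors listed at 0, XIRP1, genes that carry or restrain the receptor signal, list genes correlated with CCR2 or CXCR1, and ADGRG1 were named after their values were seen. The members and lists were chosen with earlier results of these data known. Intervals and floors cover counting error only.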

Additional observations from a re-analysis of the deposited data

How the results depend on the processing

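No receptor passed the FDR on BW under any alternative run. The count of genes passing was 0 by edgeR, 191 by DESeq2, 4 with all 20 cows, 147 with any count kept and 1 with library size as a covariate, and 0 to 34 leaving out 1 cow, highest without that of the 32 kg calf. Genes at an unadjusted p below 0.05 were 2247, 3409 with any count and 1263 with the eosinophil score, a covariate chosen after seeing the data like the monocyte and platelet scores, and 1605 to 2464 leaving out 1 cow. The receptors among them were 1, 0 with all 20 cows, and 1 to 1 leaving out 1 cow. The CCR1 slope was 0.13 to 0.19 leaving out 1 cow. Slopes near 0 changed sign. CCR2 became 0.077 with the eosinophil and 0.049 with the monocyte score. CXCR1 became -0.025 (voom), -0.049 (20 cows), -0.020 (library size), -0.060 (neutrophil), -0.011 (T cell) and -0.020 (platelet). CXCR2 became 0.0029 by DESeq2 and by its size factors, 0.0014 (upper quartile), 0.0052 (any count), 0.0028 (50 counts in 10 cows), 0.046 (eosinophil) and 0.046 (monocyte). CXCR3 became -0.039 (20 cows) and -0.023 (eosinophil), and CXCR4 0.014 (eosinophil). Leaving out 1 cow gave -0.061 to 0.047 for CXCR2, -0.061 to 0.053 for CCR2, -0.015 to 0.052 for CXCR3 and -0.052 to 0.070 for CXCR1, and, with no change of sign, -0.079 to -0.0047 for CXCR4, -0.046 to -0.0098 for CCR7 and -0.096 to -0.038 for CCR4. The cause was not tested. Pairs at unadjusted p were 6, 4 with total counts, and 5 to 7 leaving out 1 cow. No paired analysis was possible because all cows belong to 1 group.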

Other observations

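CCR8, whose span holds CX3CR1 in the gene table, had a lowest value of 20.4 and a median of 35.2 CPM. Its slope on BW was -0.09 per 10 kg (SE 0.11, edgeR unadjusted p = 0.394). Over 20 cows it went with the natural killer and cytotoxic score with r = 0.60 (permutation p = 0.00491) and rho = 0.61 (permutation p = 0.00473). Adjusted over the 10 marker lists for CCR8 alone, these permutation p-values became 0.0491 and 0.0473. The 8 measured receptors were adjusted over 80 relations, a stricter rule, so these adjusted values cannot be set beside theirs. The named gene most like CCR8 was ADGRG1 (rho = 0.87, r = 0.87). CCR8 and ADGRG1 were singled out after their values were seen. Whether reads of genes inside the CCR8 span were counted under CCR8 was not tested. The values above are therefore not given as those of CCR8 alone.

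Other receptors of the family also had counts. CCR9, which directs lymphocytes to the gut, was 23.8 to 52.9 CPM, CCR6 was 16.4 to 24.9 CPM and CXCR5, which leads B cells to follicles, was 12.3 to 20.7 CPM. CCRL2 was 2.09 to 8.03 CPM. None of the 9 tested had an unadjusted p below 0.05 on BW by edgeR, beside 13.9% of all genes. Among 10 tested receptors for other attractants, 3 did, all with a positive slope, beside 6.78% of all genes with both. They were the histamine receptor HRH4 (0.48 per 10 kg, edgeR unadjusted p = 0.00708, FDR = 0.202), the prostaglandin receptor PTGDR2 (0.35, edgeR unadjusted p = 0.0161, FDR = 0.248) and the sphingosine phosphate receptor S1PR4 (0.11, edgeR unadjusted p = 0.0170, FDR = 0.253). HRH4 is itself 1 of the 3 genes of the eosinophil score.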
